A study of Mus musculus with 4 samples.

Results

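The insulin-like growth factor axis was followed here through 9 genes, chosen by function around 2 of them, Igf2r and Igfals, whose expression differed between the groups: the ligand genes Igf1 and Igf2, the binding protein genes Igfals and Igfbp4, the receptor genes Igf1r, Insr and Igf2r, and the adaptor genes Irs1 and Irs2. They were read from 11 transcript clusters, the array's unit of measurement, that the platform's gene table pairs with a member and no other gene, out of 21789 clusters (19938 genes) with exactly 1 symbol. Insr and Irs1 had 2 clusters each. Igf2r and Igfals were included because of their differences between the groups in these same arrays, so their values are given as a description, without a p-value, and nothing is read from their passing a threshold. The other 7 genes were included for their function.

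The groups were Mbd4 KO cells (2 arrays) and control cells (2 arrays), both of CH12.F3, a mouse B lymphoma line that can switch from IgM to IgA in culture. Mbd4 encodes a DNA glycosylase that binds methylated CpG and removes thymine or uracil paired with guanine. Cultures of both groups had 6% FCS and then received, over 24 hours, CD40L (25% by volume), TGFb (0.2 ng/ml) and IL4 (5 ng/ml), so no array shows unactivated cells. The labels give neither the deleted part of Mbd4 nor the number of knockout clones or separate cultures, so the spread behind each p-value may be only technical, and loss of Mbd4 cannot be told apart from other differences between the cells.

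Igf1 and Igf2 encode small secreted hormones that signal for growth and survival through the tyrosine kinase receptors made from Igf1r and Insr, which pass the signal to PI3 kinase and AKT by way of the adaptors Irs1 and Irs2. In blood and around cells the ligands are held by binding proteins, and Igfals, made mainly in liver, encodes the acid-labile subunit that locks a ligand and a binding protein into a long-lived complex. Igf2r has no kinase: it carries Igf2 into the cell for breakdown and carries enzymes tagged with mannose 6-phosphate to lysosomes.

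The start sites of Igf2r and Igfals are shown because these genes carried the large differences and because the glycosylase lost in the Mbd4 KO cells binds methylated CpG sites. The 250 bases before each start, from RefSeq on build GRCm38.p6, are printed from 5′ to 3′ with every CG dinucleotide in capitals. A CG reads the same on both strands.
Igf2r, chr17:12769707-12769956, minus strand: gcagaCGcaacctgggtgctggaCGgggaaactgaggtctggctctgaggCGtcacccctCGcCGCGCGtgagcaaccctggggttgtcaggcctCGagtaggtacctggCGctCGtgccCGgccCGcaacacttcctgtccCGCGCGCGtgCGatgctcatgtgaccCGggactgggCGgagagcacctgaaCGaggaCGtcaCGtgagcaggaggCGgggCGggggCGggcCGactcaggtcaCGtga
Igfals, chr17:24877594-24877843, plus strand: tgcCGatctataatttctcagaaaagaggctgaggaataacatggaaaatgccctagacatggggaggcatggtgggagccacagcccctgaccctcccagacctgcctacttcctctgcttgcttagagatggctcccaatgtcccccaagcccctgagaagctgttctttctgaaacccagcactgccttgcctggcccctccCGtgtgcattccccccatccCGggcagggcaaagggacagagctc
The Igf2r window held 27 CG sites, a number reached by 8.56% of 32851 promoter windows of this length in the table. The Igfals window held 3, and 71% of the windows held at least as many. The other 2 annotated Igfals starts had 4 CG sites each. The median window had 6, and 92.1% had at least 1. Among the other members, Igf1r had 42 sites in its window, Irs2 had 34, Irs1 28, Igfbp4 22 and Igf1 5, and the 4 Igf2 windows held between 1 and 22. These are counts of letters, and no methylation was measured in these samples. In all, 8 of the 9 members had a window in the table.

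The deposited values were log2 expression values. Medians of the 4 arrays lay between 6.94 and 6.98, and Pearson's r across all 35556 clusters, which are not independent, was 0.9954 between the Mbd4 KO arrays, 0.9955 between the control arrays and 0.9937 to 0.9943 across groups. The targeted gene, Mbd4, had 6.47 and 6.49 in Mbd4 KO cells, against 8.74 and 8.77 in control cells, so the arrays ranked as labelled. The B cell markers fixed for the line (7 of 8 measured) had medians of 11.2 and 11.32 in the Mbd4 KO arrays and 11.46 and 11.4 in the control arrays. Not every B cell marker was high: the brightest Ighm cluster had 7.54 and 7.42 in Mbd4 KO cells and 7.57 and 7.56 in control cells. Markers of T cells, myeloid cells, fibroblasts and hepatocytes had medians between 5.88 and 7.16 on every array. Of these 16 measured genes and of the 7 B cell genes, limma called 0. At an unadjusted limma p under 0.05 in any cluster of a gene, 2 of the 16 and 2 of the 7 were higher and 0 lower. Over all genes 7.88% were higher and 6.59% lower at that level. The 2 B cell genes were Cd22 and Ighm. Ighm counted only through its dimmest cluster, with 4.18 and 3.89 in Mbd4 KO cells and 3.7 and 3.6 in control cells. Its brightest cluster differed by -0.08. The largest B cell difference was that of Cd22, 0.44 (limma adjusted p = 0.0843).

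Igf2r was lower and Igfals higher in Mbd4 KO cells, whereas no cluster of the ligand genes, Igfbp4, the kinase receptor genes or the adaptor genes passed the test. Of the 11 clusters, 2 passed limma's adjusted p threshold of 0.05, those of Igf2r (lower) and Igfals (higher), against 1.39% of all clusters tested, 0.955% called lower and 0.431% called higher. Since these 2 were chosen on this same comparison, nothing is read from that count. Of the other 9 clusters, 3 had an unadjusted limma p under 0.05, both of Insr and 1 of Irs1, where 13.8% of all clusters did. The Mbd4 KO and control arrays were fully apart in 6 of these 9, against 45.0% of all clusters. With 9 clusters of 7 genes these counts are a description.

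Igf2r, the receptor that clears Igf2, had 7.33 and 7.48 in Mbd4 KO cells, against 9.6 and 9.59 in control cells (log2). Both Mbd4 KO arrays lay well under both control arrays, and the control arrays were almost equal. The means were 7.41 ± 0.104 in Mbd4 KO cells and 9.6 ± 0.00315 in control cells (SD, n = 2 each), a difference of -2.19 ± 0.0776 (log2, SE), 4.56-fold lower. In order of size this was number 9 among the falls of all 21789 clusters. The Mbd4 KO values still lay above the medians of their arrays. Col1a1, the brightest of the 16 measured markers of other cell types, was about as high there, at 7.62 and 7.49. The Mbd4 KO values of Igf2r therefore do not show that transcript remained, and the fold may be cut short. Leaving out any 1 array kept the difference between -2.26 and -2.12. As Igf2r was chosen on these same arrays, that range is only a description. In RNA from a whole culture, fewer cells with a transcript and less of it per cell cannot be told apart.

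Igfals, which encodes the acid-labile subunit, had 7.82 and 7.8 in Mbd4 KO cells, against 6.63 and 6.42 in control cells (log2). Here both Mbd4 KO arrays were the high ones, and they lay closer to each other than the control arrays did. The means were 7.81 ± 0.0154 in Mbd4 KO cells and 6.53 ± 0.151 in control cells (SD, n = 2 each), a difference of 1.28 ± 0.0897 (log2, SE), 2.43-fold higher and number 9 among the rises. The control values lay under the medians of their arrays, where a fold is read less surely. Leaving out any 1 array kept the difference between 1.18 and 1.39, again only a description of arrays on which the gene was chosen. Igfals is known as a liver gene. Of the hepatocyte markers, Alb, the albumin gene, had 5.66 and 5.45 in Mbd4 KO cells and 5.63 and 5.59 in control cells, and the 4 measured markers had a median difference of 0.05, with 0 called.

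**Figure D1:**
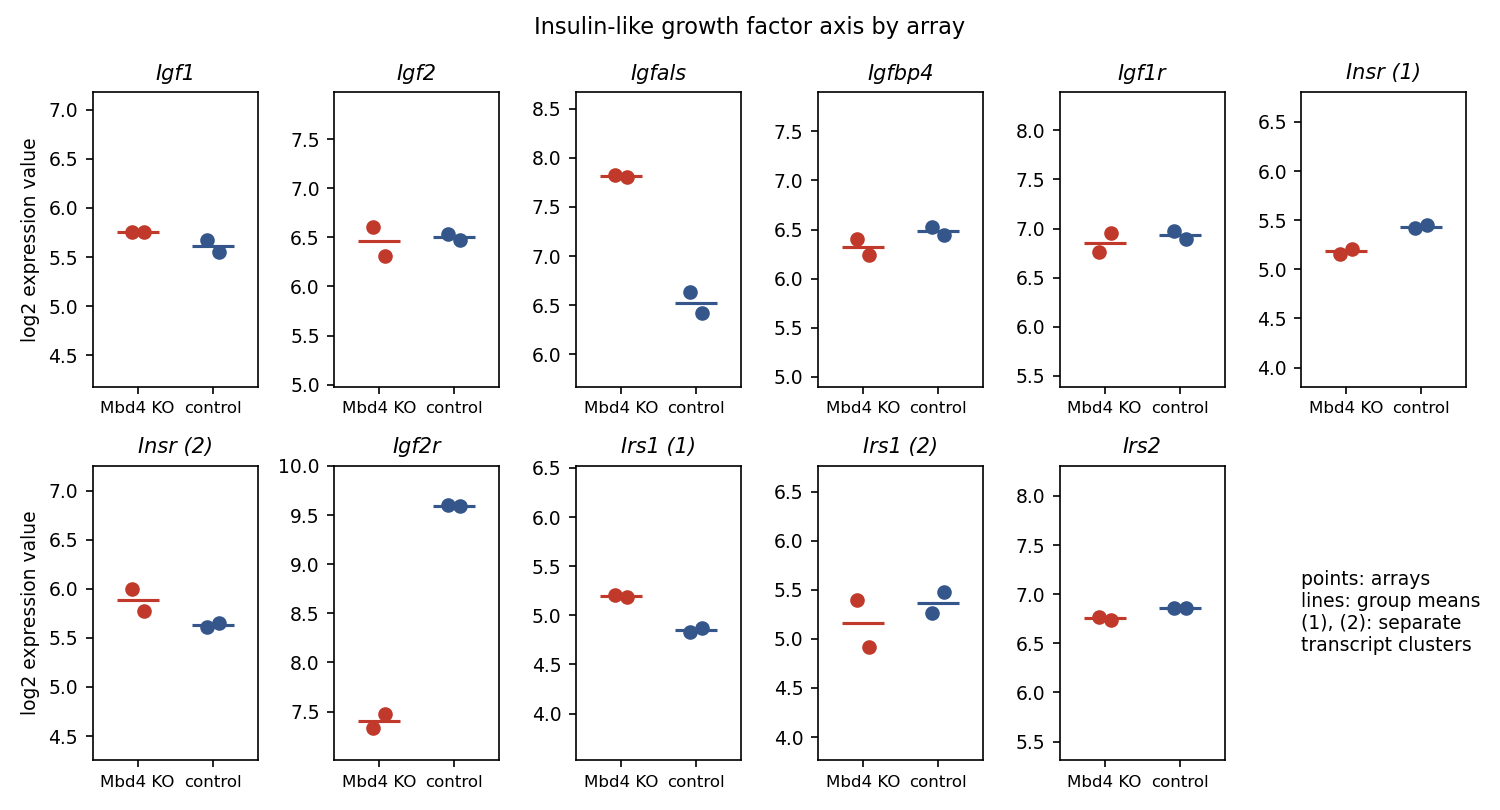
Expression values (log2, y axis, with the same span in every panel) of the 11 member clusters on the 2 Mbd4 KO arrays (red) and the 2 control arrays (blue), with lines at group means. Igf2r sits at 7.33 and 7.48 in Mbd4 KO cells against 9.6 and 9.59 in control cells, Igfals lies the other way round, and the remaining panels show far smaller gaps.

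The ligand genes did not pass. Igf1 had 5.75 and 5.75 in Mbd4 KO cells, against 5.67 and 5.55 in control cells, and its difference of 0.14 ± 0.0745 (log2, SE) had a 95% interval of -0.04 to 0.32 (limma adjusted p = 0.473). Igf2 had 6.61 and 6.31 in Mbd4 KO cells, against 6.53 and 6.47 in control cells. The Mbd4 KO arrays of Igf2 enclosed the control arrays, and the difference of -0.04 ± 0.109 had an interval of -0.31 to 0.22 (limma adjusted p = 0.907). Values of both lay under the medians of their arrays.

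Igfbp4 encodes a binding protein that holds the ligands away from their receptors. It had 6.4 and 6.24 in Mbd4 KO cells, against 6.53 and 6.44 in control cells. The groups lay apart by less than the gap between the Mbd4 KO arrays, and the difference of -0.16 ± 0.0849 (log2, SE) did not pass (limma adjusted p = 0.478, interval -0.37 to 0.05). Igfbp4 values lay within the range of the medians of other cell types' markers, 5.88 to 7.16, where a fold is read less surely.

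Igf1r, the main kinase receptor for both ligands, had 6.76 and 6.95 in Mbd4 KO cells, against 6.97 and 6.89 in control cells. Its groups overlapped, and the difference of -0.07 ± 0.0882 (log2, SE) did not pass (limma adjusted p = 0.774). The interval was -0.29 to 0.14. Igf1r values lay within the range of the medians of other cell types' markers, 5.88 to 7.16. At that level a fold is read less surely, so the interval does not bound the change in transcript. Insr encodes the insulin receptor, which also pairs with the Igf1r protein in hybrid receptors. Its clusters disagreed in sign. The first had 5.16 and 5.21 in Mbd4 KO cells and 5.42 and 5.45 in control cells, a difference of -0.25 ± 0.0669 (limma adjusted p = 0.186). The second had 6 and 5.77 in Mbd4 KO cells and 5.61 and 5.65 in control cells, a difference of 0.25 ± 0.093 (limma adjusted p = 0.316). In both the groups did not overlap, yet neither passed, so no direction is given for Insr. The 10 measured genes nearest to it on chromosome 8 had a median difference of -0.04.

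Irs1, an adaptor that binds the activated receptors and recruits PI3 kinase, also had clusters of opposite sign. One had 5.21 and 5.19 in Mbd4 KO cells, against 4.83 and 4.87 in control cells, with a difference of 0.35 ± 0.0664 (log2, SE; limma adjusted p = 0.0837). The gene table pairs this cluster with a different transcript record from that of the other Irs1 cluster. That second cluster had 5.4 and 4.92 in Mbd4 KO cells, against 5.26 and 5.48 in control cells, and a difference of -0.21 ± 0.166 (limma adjusted p = 0.649). Its Mbd4 KO arrays were the farthest apart of any pair among the members. Irs2, the adaptor known for lymphocyte responses to IL4, had 6.77 and 6.74 in Mbd4 KO cells, against 6.86 and 6.86 in control cells. Its difference of -0.11 ± 0.0657 had an interval of -0.27 to 0.06 (limma adjusted p = 0.546). Irs2 lies on chromosome 8 among genes with lower values in Mbd4 KO cells. The 20 nearest measured genes had a median difference of -0.18, with 14 below 0 and 4 called lower (8386 and 192 of all 19938 genes). The part of that stretch in the Irs2 value was not tested. The clusters of Igf1, Insr and Irs1, 5 of 11, were among the dimmest 30% of those tested. Irs2 values lay within the range of the medians of other cell types' markers, 5.88 to 7.16, where a fold is also read less surely.

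**Figure D2:**
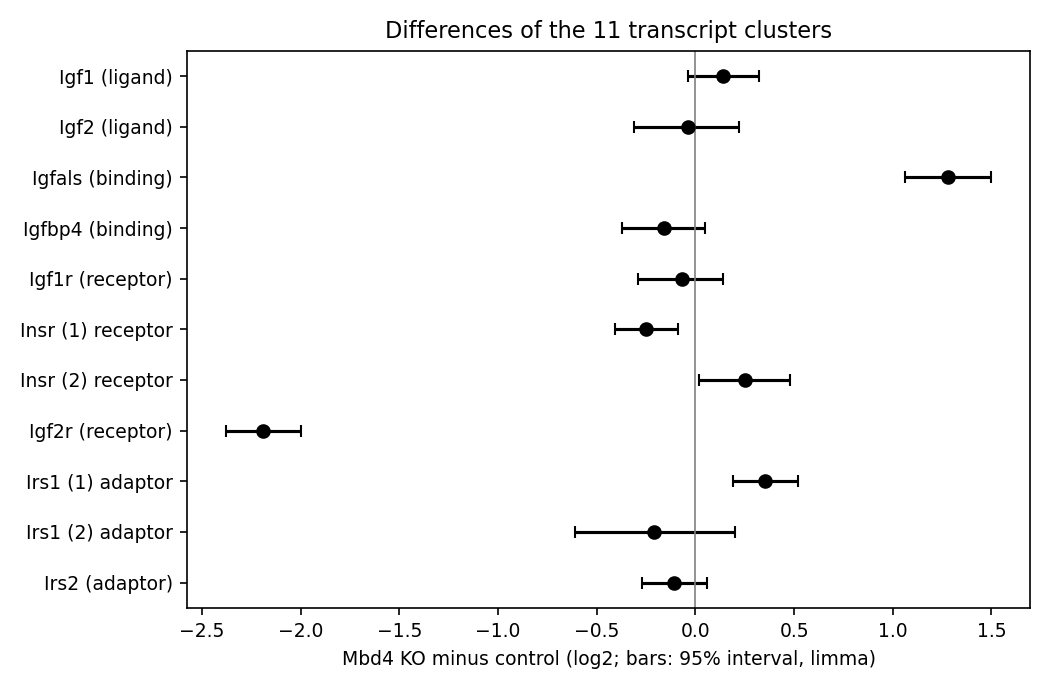
Mbd4 KO minus control difference (log2, x axis) of each member cluster, with its 95% interval from limma, ordered by role. Igf2r at -2.19 and Igfals at 1.28 stand away from the other 9 clusters, whose differences run between -0.25 and 0.35.

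Among other genes that act on the ligands outside the cell, Pappa2 was lower in Mbd4 KO cells. Pappa2 encodes a secreted metalloprotease known to cut Igfbp3 and Igfbp5, which frees ligand from the complex that the Igfals product holds together. Its 3 clusters had log2 differences of -1.39 ± 0.0963, -1.16 ± 0.101 and -1.15 ± 0.0991 (SE), all past the threshold, with limma adjusted p of 0.00367, 0.0079 and 0.0079. In the cluster with the largest fall it had 5.43 and 5.57 in Mbd4 KO cells, against 6.79 and 6.99 in control cells. The second cluster had 6.55 and 6.32 in Mbd4 KO cells and 7.52 and 7.66 in control cells, and the third had 6.36 and 6.18 in Mbd4 KO cells and 7.51 and 7.32 in control cells. In all 3 both Mbd4 KO arrays lay under both control arrays, by 2.21-fold to 2.62-fold between means. The clusters share a gene and are not independent of each other. With 1 array left out, a group has a lone array, which is assumed to vary like the pair of the other group, so these fits are a weak check. In them the first cluster was called each time (adjusted p 0.0123 to 0.0428), the second lost it when control array 2 (0.0632) or the second Mbd4 KO array (0.0509) was left out, and the third when the second Mbd4 KO array was (0.0606). The 20 nearest measured genes had a median difference of 0.02.

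**Figure D3:**
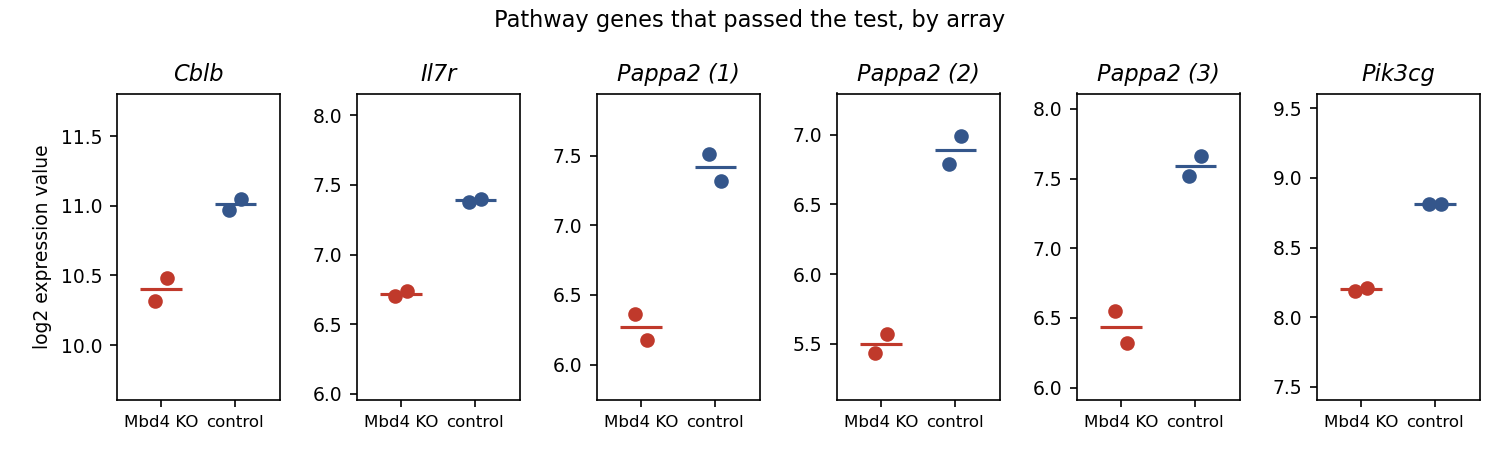
Expression values (log2, y axis) of the 6 clusters of other pathway genes that passed limma's threshold, on the 2 Mbd4 KO arrays (red) and the 2 control arrays (blue), with lines at group means. In every panel both Mbd4 KO points lie below both control points, and the gap is widest in the 3 Pappa2 clusters.

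The other binding proteins and their proteases did not pass, so that of 12 measured genes in this list 0 rose and 1 fell. At an unadjusted limma p under 0.05 the list had 1 gene higher and 1 lower. Over all genes tested 7.88% were higher and 6.59% lower at that level, against which the unadjusted counts of this and the other lists stand. In limma 90 of all 19938 genes rose and 192 fell past the threshold, against which the called counts of each list stand. The list median was 0.02, against 0.023 over all genes. Igfbp7, a binding protein with low affinity for the ligands, had the largest remaining difference, 0.39 ± 0.0877 (log2, SE; limma adjusted p = 0.129). It had 7.79 and 7.85 in Mbd4 KO cells, against 7.34 and 7.53 in control cells. The substrates of Pappa2 lay near 0, with -0.01 for Igfbp3 (interval -0.22 to 0.2) and 0.1 for Igfbp5 (-0.12 to 0.31). The related protease gene Pappa differed by 0.02 (-0.16 to 0.19), and its inhibitors Stc1 and Stc2 by -0.07 and 0.03, in each case without a call. These 5 were named after their values were seen, as relatives of Pappa2.

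Among the insulin genes, their related receptor and the insulin-degrading protease, 0 of 3 measured passed (1 at an unadjusted limma p under 0.05), with 0.21 for the receptor-related gene Insrr (limma adjusted p = 0.252) and -0.06 for Ins2, an insulin gene. The mRNA-binding proteins that bind Igf2 transcripts had 0 of 2 passing (0 unadjusted), and Igf2bp3 differed by -0.02 (95% interval -0.19 to 0.16).

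Adaptors and regulators of the receptor kinases had 20 measured genes, of which 0 rose and 1 fell, where 90 rose and 192 fell among all 19938. At an unadjusted limma p under 0.05, 1 was higher and 2 lower, and the median was -0.02. Cblb encodes a ubiquitin ligase that restrains signalling in lymphocytes. It had 10.32 and 10.48 in Mbd4 KO cells, against 10.97 and 11.05 in control cells, a fall with a log2 difference of -0.62 ± 0.0836 (SE; limma adjusted p = 0.0367). Cblb lies on chromosome 16. Its 20 nearest measured genes there had a median of -0.32 and 17 were below 0, against 8386 of all 19938 genes. Whether that stretch has a part in its fall was not tested. Leaving out any 1 array ended the call (adjusted p 0.105 to 0.195). Its relative Cbl had the next largest difference in the list, -0.26 (limma adjusted p = 0.197).

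In the list of PI3 kinase, AKT and mTOR genes, 24 were measured, 0 rose and 1 fell, against 90 and 192 of all 19938 genes. Unadjusted, 1 was higher and 4 lower, and the median was 0.01. Pik3cg encodes the gamma catalytic subunit of PI3 kinase, which answers mainly to G protein-coupled receptors. It had 8.19 and 8.21 in Mbd4 KO cells, against 8.81 and 8.81 in control cells, and fell by 0.61 (log2; SE 0.0652; limma adjusted p = 0.0155). Without any 1 array the call was lost (0.108 to 0.128), while the difference stayed between -0.63 and -0.6. Gsk3b, a kinase that AKT inhibits, differed by -0.45 (limma adjusted p = 0.0989). It too lies on chromosome 16, where 19 of its 20 nearest measured genes were below 0, against 8386 of all 19938. Pik3r3, a regulatory subunit gene named after its value was seen, had 6.89 and 6.84 in Mbd4 KO cells, against 6.39 and 6.45 in control cells, and a difference of 0.44 just outside the threshold (limma adjusted p = 0.0508).

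FOXO factors, which AKT keeps out of the nucleus, and their reported targets had 15 measured members. Of these 0 rose and 1 fell, against 90 and 192 of all 19938 genes (2 higher and 1 lower unadjusted), with a median of 0.07. The gene that fell was Il7r, the IL-7 receptor chain gene, at -0.67 ± 0.0667 (log2, SE; limma adjusted p = 0.0132). It had 6.7 and 6.74 in Mbd4 KO cells, against 7.38 and 7.4 in control cells. Its call was also lost without any 1 array (0.0913 to 0.11). Trib3, which encodes a pseudokinase that binds AKT, had a difference of 0.44 (limma adjusted p = 0.0744).

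The sorting role of Igf2r was followed in the genes of mannose 6-phosphate sorting and in the lysosomal enzymes it carries. In the sorting list 0 of 14 measured genes passed in limma (0 higher and 3 lower unadjusted), with a median of -0.02 and differences from -0.24 to 0.11. Sort1, the gene of the sorting receptor sortilin, had 7.24 and 7.34 in Mbd4 KO cells and 7.57 and 7.49 in control cells, a difference of -0.24 (limma adjusted p = 0.241). Gnptab encodes the transferase that begins the mannose 6-phosphate tag, and differed by -0.21 (limma adjusted p = 0.261). The second mannose 6-phosphate receptor gene, M6pr, had no cluster that could be used here.

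Among lysosomal enzymes and cargo, 0 of 18 measured genes passed in limma (5 higher and 0 lower unadjusted, against 7.88% and 6.59% of all genes), with a median of 0.1 and 14 above 0, against 11552 of 19938 over all genes. The largest value was that of Arsb, arylsulfatase B, which had 6.48 and 6.45 in Mbd4 KO cells and 6.07 and 6.06 in control cells in the brighter of its clusters, a difference of 0.39 (limma adjusted p = 0.0592). Idua, the iduronidase gene, followed with 0.24 (limma adjusted p = 0.232). A further list, drawn up as other ligands of the Igf2r protein, had 0 of 6 passing (1 higher and 1 lower unadjusted). Whether each gene in it encodes such a ligand was not checked, so the list is only a grouping. The serpin gene Serpinb1a differed by -0.36 (limma adjusted p = 0.074) and Plaur, the urokinase receptor gene, by 0.3 (limma adjusted p = 0.127).

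All these lists together held 117 measured genes in 126 clusters. Of the genes, 0 rose and 4 fell in limma, where 90 rose and 192 fell among all 19938 genes. At an unadjusted limma p under 0.05, 13 were higher and 12 lower, against 7.88% and 6.59% of all genes. By cluster, 6 passed (4.76%, against 1.39% of all clusters tested). Every Pappa2 cluster is among these 6, and they are not independent of each other, which raises the share. The share whose groups did not overlap was 47.6%, against 45.0%. The lists were drawn up with earlier results of these arrays known, so these shares are a description.

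**Figure D4:**
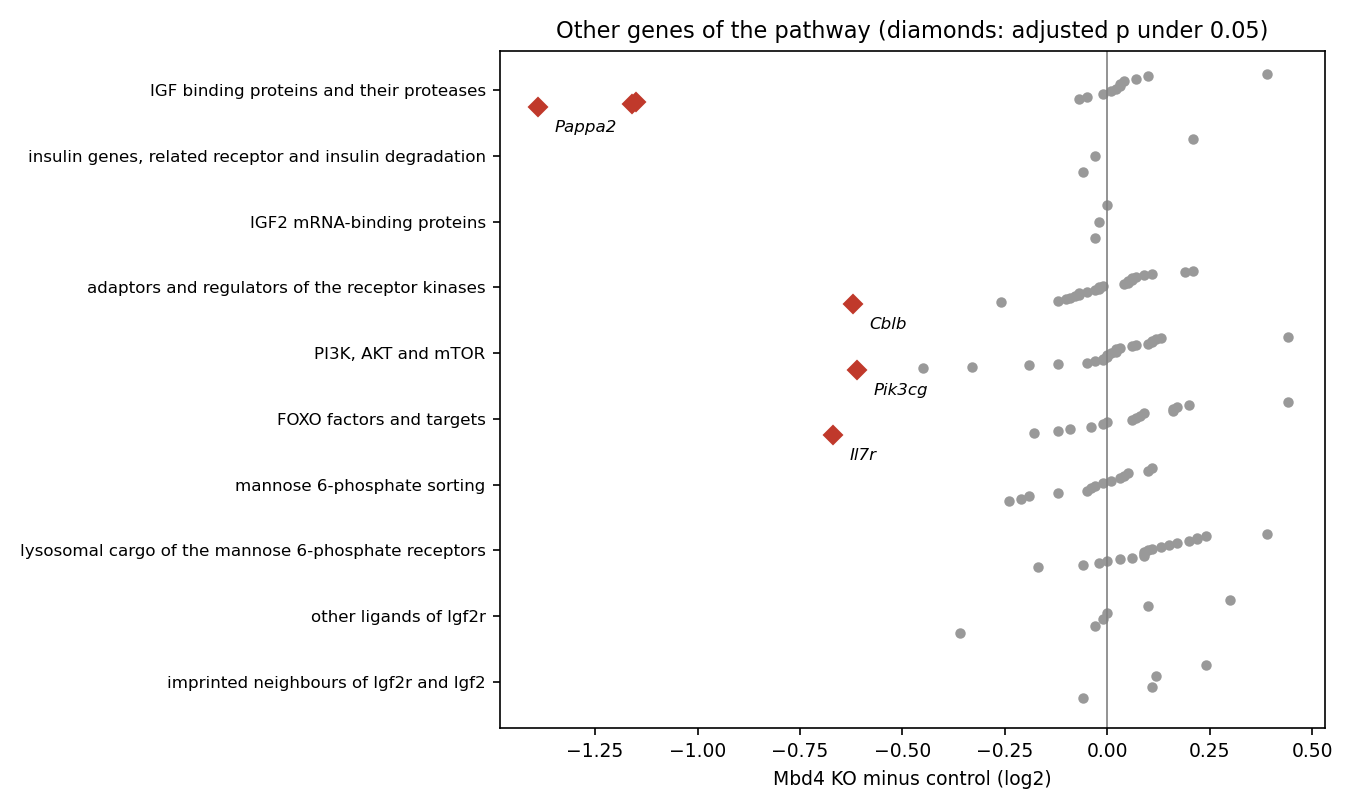
Mbd4 KO minus control difference (log2, x axis) of every measured cluster in the 10 pathway lists (rows). Red diamonds passed limma's adjusted p threshold of 0.05 and are named; the 3 Pappa2 clusters between -1.39 and -1.15 lie farthest from 0, and no diamond lies above 0.

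The genes beside Igf2r on chromosome 17 were examined because Igf2r is imprinted in mice: Airn, a long antisense RNA that starts inside Igf2r, silences the paternal copy in cis. Airn had 9.2 and 9.33 in Mbd4 KO cells, against 9 and 9.04 in control cells. Both Mbd4 KO arrays were above both control arrays, but the difference of 0.24 ± 0.0765 (log2, SE; 95% interval 0.06 to 0.43) did not pass (limma adjusted p = 0.246). Airn overlaps Igf2r, and where the probes of either lie, and on which strand, is not given in the labels. Slc22a2, an organic cation transporter gene in the same imprinted cluster, differed by 0.11 (limma adjusted p = 0.681), and Mas1, a G protein-coupled receptor gene, by 0.12 (0.765). The list of neighbours of the imprinted genes Igf2r and Igf2 had 4 measured genes, with a median of 0.12. Of these, limma called 0 (1, Airn, at an unadjusted p under 0.05). Whether each of the 4 is imprinted in this line was not measured. The other neighbours named by order in the RefSeq annotation were Qk, Agpat4, Map3k4, Plg, Mrgprh, Pnldc1 and Mrpl18, with differences from -0.21 to 0.26. None of these 10 neighbours passed in limma (2 at an unadjusted p under 0.05), and their largest value was that of Agpat4, an acyltransferase gene (limma adjusted p = 0.256). Of all clusters 1.39% passed, and 13.8% had an unadjusted limma p under 0.05, so 0 calls among 10 genes is only a description.

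Igfals lies on the same chromosome, away from Igf2r, between the measured genes Fahd1 and Nubp2. Its 10 neighbours, Msrb1, Hs3st6, Meiob, Hagh, Fahd1, Nubp2, Spsb3, Mrps34, Nme3 and Mapk8ip3, had differences from -0.18 to 0.26 and none passed in limma (0 unadjusted). With 1.39% of all clusters called, and 13.8% at an unadjusted limma p under 0.05, this count too is only a description. Hagh, a glyoxalase gene, had 9.7 and 9.67 in Mbd4 KO cells, against 9.47 and 9.56 in control cells (difference 0.17, limma adjusted p = 0.368). Over the 20 nearest measured genes the median was 0.02 around Igfals, with 0 called. It was 0.07 around Igf2r, with 1 called lower, 1700010I14Rik, named after its value was seen, which had 5.25 and 5.25 in Mbd4 KO cells, against 6 and 6 in control cells (difference -0.75, limma adjusted p = 0.0079).

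**Figure D5:**
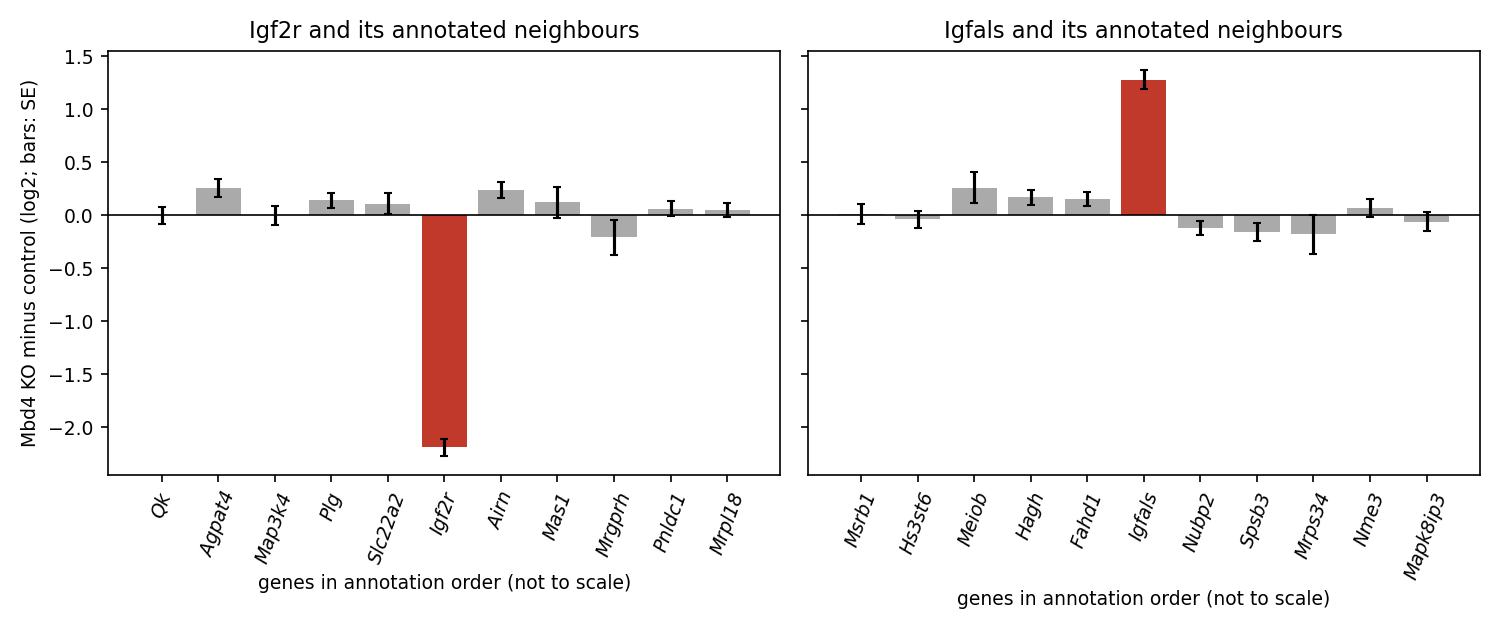
Mbd4 KO minus control difference (log2, y axis; error bars are limma's SE) of Igf2r and Igfals (red) and of the 5 measured genes on each side in annotation order (grey). Igf2r at -2.19 and Igfals at 1.28 stand between neighbours that all lie within -0.21 and 0.26.

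Likeness to Igf2r and Igfals over the 4 arrays was measured as the root mean square distance between values, each cluster centred on its own mean. The genes closest to Igf2r were the latrophilin gene Adgrl2 in 1 of its clusters (0.0547), Mbd4 itself (0.0646) and the HMG-box gene Bbx (0.126). Adgrl2 had 4.75 and 4.75 in Mbd4 KO cells, against 6.97 and 6.92 in control cells. Closest to Igfals were the nesprin gene Syne4 (0.0178), Septin10 (0.0513) and the phosphodiesterase gene Pde1c (0.0679). Syne4 had 8.89 and 8.91 in Mbd4 KO cells, against 7.72 and 7.53 in control cells. With 4 arrays in 2 groups, this distance reflects little beyond a group difference of like size.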

How the data were processed

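RNA of 4 samples was hybridised to 1-colour whole-transcript arrays. Each deposited value is the log2 expression of 1 transcript cluster on 1 array, which the authors computed with RMA, per the submitters' processing notes. That method evens out array-wide shifts by quantile normalization before probes are summarised. The labels give no RMA version, settings or array build. Of 35556 clusters, 21789 had exactly 1 gene symbol in the platform's table, 1621 had several and 12146 had none, and only the first were tested. No array was a copy of another (at most 39 identical values in a pair).

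Mbd4 KO arrays were set against control arrays in limma (version 3.58.1, under R 4.3.3) by lmFit and eBayes (2 residual and 4 prior degrees of freedom), two-sided, without a filter, with Benjamini-Hochberg adjustment over all 21789 clusters and a threshold of 0.05. SE and 95% intervals are limma's moderated ones. The number of arrays limits the precision. A gene list's median uses each gene's brightest cluster. The procedure was tested on simulated data with 200 changed clusters. Noise was drawn for each cluster on its own and without regard to brightness, so the rates may not hold for dim clusters. It recovered 24% of changes of 0.5 log2 and 92% of changes of 1 log2, and called 6 unchanged clusters. A gene that did not pass may therefore still differ, also by 0.5 log2.

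The members and lists were chosen with earlier results of these data known. Genes named are the members, Mbd4, every passing gene and the 2 largest differences of each list, the 5 measured neighbours on each side of Igf2r and Igfals in the RefSeq order of assembly GRCm38.p6, and the 3 genes closest to each. Markers, and genes said to be named after their values were seen, stand outside this rule. Alternatives were a replicate block, each array left out, other priors, a filter on dim clusters, further normalization and all clusters tested. Figures were drawn with matplotlib 3.10.9.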

Additional observations from a re-analysis of the deposited data

How the results depend on the processing

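The number of clusters called, 302, was 159 with the replicate block, 65 to 75 with any 1 array left out, 1121 with an intensity trend in the prior, 640 with the dimmest 30% removed and 22 when all clusters of the table were tested. The count of member clusters past the threshold was 2 (Igf2r and Igfals) and became 1 (Igf2r) with all clusters tested. Both were chosen on these arrays, so nothing is read from how often they pass. The count of other pathway genes called, 4, was the same 4 with the replicate block, 1 (Pappa2) with any 1 array left out, 14 with the trend, 10 without the dimmest clusters and 0 with all clusters. At that last setting limma called none of the 3 Pappa2 clusters (adjusted p 0.0802 to 0.117). With all clusters the adjustment runs over 35556 values and the prior is fitted on them. None of the other 9 member clusters passed under any alternative that kept it. Igf2, Igf1r and the second Irs1 cluster each changed sign in 1 of theirs, without a call. The clusters of Igf1, Insr and Irs1 fell to the filter on dim clusters, so that alternative did not test them. With 1 array left out, the lone array is assumed to vary like the other group. Same-numbered arrays share only a number in the labels, and their deviations from group means correlated at r = 0.0831 across clusters, so the replicate block is no paired design. It ended the call of none of the 4 pathway genes.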
